A study of Mus musculus with 10 samples.

Results

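The genes described here are 7 genes of the intermediate filament family in the embryonic mouse heart. Vim, Des, Nes and Synm encode cytoplasmic filament proteins, and Lmna, Lmnb1 and Lmnb2 encode the lamins of the nucleus. They were chosen by name as the family's main members in heart cells, and each was represented by the array row that names that gene alone. Each of the 7 had 1 such row, out of 19938 genes with a row of their own. The samples were hearts of E10.5 embryos from matings of CAR +/- mice. There were 5 CAR KO samples (CAR -/-, the Cxadr tm1 allele, lacking the coxsackie and adenovirus receptor in every cell) and 5 WT samples (CAR +/+). Each sample held RNA of 3 pooled hearts (15 hearts per genotype), no treatment was given, and the sex of the embryos is not stated. The deletion was thus not limited to heart muscle, and embryos without CAR are known to die soon after this stage. The labels do not say which samples share a litter, so the p-values measure the spread between these pools.

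Intermediate filaments are rope-like polymers of proteins that share a coiled-coil rod. Vimentin forms the network of mesenchymal, endothelial and many other embryonic cells. Desmin is its relative in muscle, where it ties the Z-discs of neighbouring myofibrils to each other, to the nucleus and to the junctions at the cell ends. Nestin and synemin are long members of the family that do not form filaments alone and are built into those of vimentin or desmin. Lamins line the inner nuclear membrane: B-type lamins are present in nearly all cells, and A-type lamins, both spliced from Lmna, increase as tissues differentiate. In the heart, filaments anchor at the desmosomes of the contacts in which CAR is also found. The comparison addresses whether transcripts of the filament and lamina networks differ when CAR is missing.

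Signals were read on Affymetrix Mouse Gene 1.0 ST arrays as log2 values. A row of the array sums up the probes that lie along the exons of a gene and is called a transcript cluster. Array medians lay between 7.65 and 7.73. A background level of 6.51 was taken as the 95th percentile of 1210 odorant and vomeronasal receptor clusters, and all 7 genes lay above it in every sample. Levels of different genes are not compared, because probe sets differ in brightness. Cxadr, the gene of CAR, checked the labels: it ranged from 6.23 to 6.69 in CAR KO and from 8.24 to 8.66 in WT samples, without overlap. All 9 cardiomyocyte markers examined were above background. CAR KO sample 5 and WT sample 5 stood apart from the rest of their genotypes by low cardiomyocyte and endothelial markers. Together with WT sample 2 they also had the highest means of 10 liver and yolk sac transcripts (10.78 in CAR KO sample 5 against 7.11 to 9.01 in the other CAR KO samples, and 9.81 and 9.67 in WT samples 5 and 2 against 7.69 to 7.93 in the other WT samples).

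None of the 7 transcripts was called different between the genotypes. Adjusted over 28944 transcript clusters with limma, 0 of the 7 passed an adjusted p under 0.05, against 0.00345% of all clusters (Cxadr alone). At an unadjusted p under 0.05 there were also 0 of 7, against 2.40% of all clusters, and the unmoderated test of the same values likewise called 0. This count was 1 in 8 of the 23 alternative settings, with Nes in 7 of them and Lmna in 1. In none of the 7 were the genotypes free of overlap, against 0.359% of clusters. The differences, CAR KO minus WT, ran from -0.15 for Lmna to 0.01 for Synm on the log2 scale, with a median of -0.033, where the median over all clusters was 0.011. The CAR KO mean was the lower one for 6 of the 7, against 43.9% of clusters. For 7 of 7 transcripts both ends of the 95% confidence interval stayed inside a 1.5-fold change up or down (97.3% of clusters), and for 4 of 7 inside a 1.2-fold change (60.6% of clusters). Those 4 were Vim, Synm, Lmnb1 and Lmnb2.

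**Figure D1:**
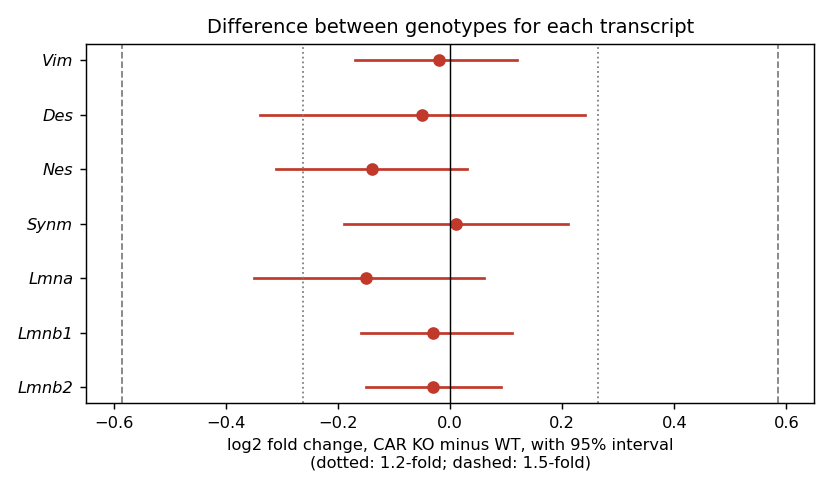
Log2 fold change (CAR KO minus WT, horizontal axis) of the 7 transcripts with the 95% confidence interval from limma, 5 samples per genotype; dotted lines mark a 1.2-fold and dashed lines a 1.5-fold change. Every interval crosses 0 and ends inside the dashed lines, and those of Des, Nes and Lmna pass a dotted line.

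Des, the filament gene of muscle, was at 12.64, 12.48, 12.50, 12.65 and 11.87 in CAR KO samples 1 to 5, against 12.54, 12.44, 12.53, 12.58 and 12.30 in WT samples 1 to 5 (log2 signal). The genotypes overlapped, with 2 CAR KO samples above all WT samples and 1, sample 5, below all of them. The means were 12.43 ± 0.32 in CAR KO and 12.48 ± 0.11 in WT hearts (SD, n = 5 each), a difference of -0.05 on the log2 scale with an interval of -0.34 to 0.24 (adjusted p = 1 from limma; exact permutation test, two-sided, p = 0.889). As a fold, CAR KO over WT was 0.966, with an interval of 0.790 to 1.18. Des had the widest spread of the 7, with a pooled SD of 0.24. The sign of the difference rested on CAR KO sample 5, the sample with the highest liver transcripts: without it the difference was 0.088 (unadjusted p = 0.25 from limma).

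Synm encodes synemin, which joins desmin filaments and links them to the costamere at the muscle membrane. Its log2 signals were 8.14, 8.18, 8.13, 8.21 and 7.85 in CAR KO samples 1 to 5 and 8.20, 8.14, 8.13, 8.20 and 7.81 in WT samples 1 to 5. In each genotype sample 5 was the low one, and the other 4 samples of both genotypes lay between 8.13 and 8.21. The means were 8.10 ± 0.14 in CAR KO and 8.10 ± 0.17 in WT hearts (SD, n = 5 each), with a difference of 0.01 and an interval of -0.19 to 0.21 (adjusted p = 1 from limma). With both samples numbered 5 left out, a choice made after the data were seen, the difference was -0.003 with a narrower interval of -0.12 to 0.11.

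Vim, the gene of vimentin, read 13.69, 13.71, 13.71, 13.77 and 13.52 in CAR KO samples 1 to 5, against 13.64, 13.79, 13.76, 13.75 and 13.56 in WT samples 1 to 5. Sample 5 was again the lowest of each genotype, and the ranges of the genotypes nearly coincided. The difference was -0.02 on the log2 scale, with an interval of -0.17 to 0.12, or a fold of 0.984 (0.890 to 1.09; adjusted p = 1 from limma).

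**Figure D2:**
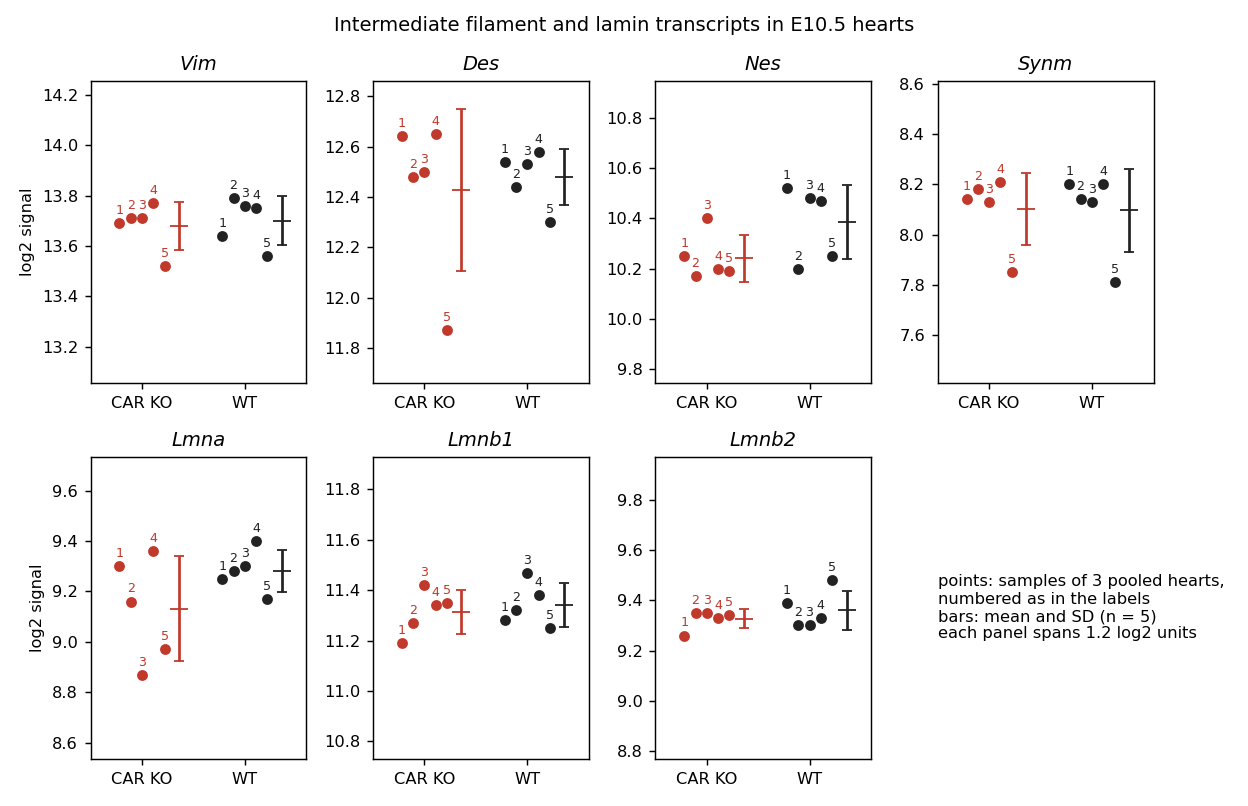
Log2 signal (vertical axis) of each transcript in the 5 CAR KO samples (red, left) and the 5 WT samples (black, right), numbered as in the labels, with the mean and SD beside the points; each panel spans 1.2 log2 units. The genotypes overlap in every panel, and sample 5 is the lowest of both genotypes for Vim, Des and Synm.

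The 3 filament genes in which sample 5 was low were correlated with each other over the 10 samples. They are grouped here by that shared low sample, so the r between them is in part a result of the grouping. After the mean of its own genotype was subtracted from each of the 10 samples, Des and Synm correlated with Pearson's r = 0.83 (exact permutation within genotype, p = 0.00618, adjusted p = 0.13 over 21 pairs) and Spearman's rho = 0.65 (p = 0.054 by the same exact permutation). Vim correlated with Synm at r = 0.84 (exact permutation p = 0.0228, adjusted p = 0.198) and rho = 0.62 (exact permutation p = 0.0769), and with Des at r = 0.76 (exact permutation p = 0.0283, adjusted p = 0.198) and rho = 0.47 (exact permutation p = 0.199). Of the 21 pairs among the 7 genes, 3 had an unadjusted p under 0.05 and 0 passed the adjustment, and 12 had a positive r. The relations rested on the samples numbered 5. Without CAR KO sample 5 and WT sample 5, the ones farthest from the median, r was 0.41 for Des and Synm, -0.08 for Vim and Synm and -0.09 for Vim and Des. The upstream sequences of these 3 genes are shown because they are the members in which sample 5 was the lowest of both genotypes. They are the 120 bases before the RefSeq start of each gene (build GRCm38.p6, 5′ to 3′ on the gene's strand), at chr1:75360172-75360291 (plus strand) for Des, chr7:67759743-67759862 (minus strand) for Synm and chr2:13574191-13574310 (plus strand) for Vim. Capitals mark 4 motifs on either strand, namely the TATA box TATAAA, the CCAAT box CCAAT, the GC box GGGCGG and the E-box CANNTG.
Des: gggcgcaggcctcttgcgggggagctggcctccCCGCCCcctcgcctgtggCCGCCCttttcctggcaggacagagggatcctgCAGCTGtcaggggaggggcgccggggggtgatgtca
Synm: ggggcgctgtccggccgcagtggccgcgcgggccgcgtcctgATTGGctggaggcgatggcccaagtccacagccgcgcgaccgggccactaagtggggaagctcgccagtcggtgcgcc
Vim: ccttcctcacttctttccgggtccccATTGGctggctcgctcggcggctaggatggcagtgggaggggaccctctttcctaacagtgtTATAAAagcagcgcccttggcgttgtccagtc

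In the full windows of 250 bases, Vim held a TATAAA starting 32 bases before the start and CCAAT motifs at 94 and 196 bases. Des held neither, but had GGGCGG at 69 and 87 bases and CANNTG at 36 and 220 bases. Synm had CCAAT at 78 bases and CANNTG at 193 bases. CCAAT was thus shared by Vim and Synm, CANNTG by Des and Synm, and none of the 4 motifs by all 3 genes. Of 32851 promoter windows of the same length, 12.4% held TATAAA, 33.8% CCAAT, 32.7% GGGCGG and 66.2% CANNTG. These are matches of letters and not shown to be binding sites.

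Some of the cell type marker lists were also low or high in the samples numbered 5. The mean of the 9 cardiomyocyte markers was 12.31 in CAR KO sample 5 against 12.62 to 12.68 in the other CAR KO samples, and 12.31 in WT sample 5 against 12.53 to 12.69 in the other WT samples. Synm followed this mean with r = 0.97 (exact permutation p = 0.00243, adjusted p = 0.077 over 70 pairs of 7 genes with 10 lists) and rho = 0.78 (exact permutation p = 0.0176). Without the samples numbered 5, r was 0.62. Des followed it with r = 0.87 (exact permutation p = 0.00535, adjusted p = 0.077) and rho = 0.60 (exact permutation p = 0.0813), and r was 0.43 without these samples and 0.08 without the 3 liver-rich samples (WT samples 2 and 5 and CAR KO sample 5). Vim was closest to the mean of 7 markers of endothelium and endocardium, with r = 0.88 (exact permutation p = 0.00382, adjusted p = 0.077), rho = 0.78 (exact permutation p = 0.0116) and r = 0.44 without the samples numbered 5. That mean was 10.83 in CAR KO sample 5 against 11.03 to 11.20 in the other CAR KO samples, and 10.98 in WT sample 5 against 11.16 to 11.23 in the other WT samples. The lists did not separate Des and Synm from Vim. Des was as close to the endothelial mean (r = 0.89, exact permutation p = 0.0066, rho = 0.62) as to the cardiomyocyte mean, and Synm had r = 0.88 with the endothelial mean (exact permutation p = 0.0167, rho = 0.61). Without the samples numbered 5 these were 0.49 for Des and 0.13 for Synm. Des, Synm and Vim, in this order, ran against the macrophage mean (r = -0.85, -0.89 and -0.71). They also ran against the epithelial mean (-0.70, -0.84 and -0.66) and the liver mean (-0.80, -0.77 and -0.62). Without the samples numbered 5 the values were -0.12, -0.28 and 0.42 for macrophage markers. They were then -0.46, -0.49 and 0.08 for epithelial and -0.21, -0.38 and 0.2 for liver markers. Vim had r = 0.76 with the cardiomyocyte mean, and -0.53 without the samples numbered 5. The mean of epicardial and cushion markers did not follow any of the 3, with r of 0.18 for Vim, -0.02 for Des and -0.10 for Synm. Of the 70 pairs 18 had an unadjusted p under 0.05 and 0 passed the adjustment, with adjusted p of 0.077 or more by exact permutation. In whole hearts, fewer cells of a type and less RNA per cell cannot be told apart, and the part of the markers in the values of Des, Synm and Vim was not tested beyond using the cardiomyocyte mean as a covariate. With it, an alternative added after the data were seen, Des differed by -0.090, Synm by -0.021 and Vim by -0.036 between the genotypes, and none was called.

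**Figure D3:**
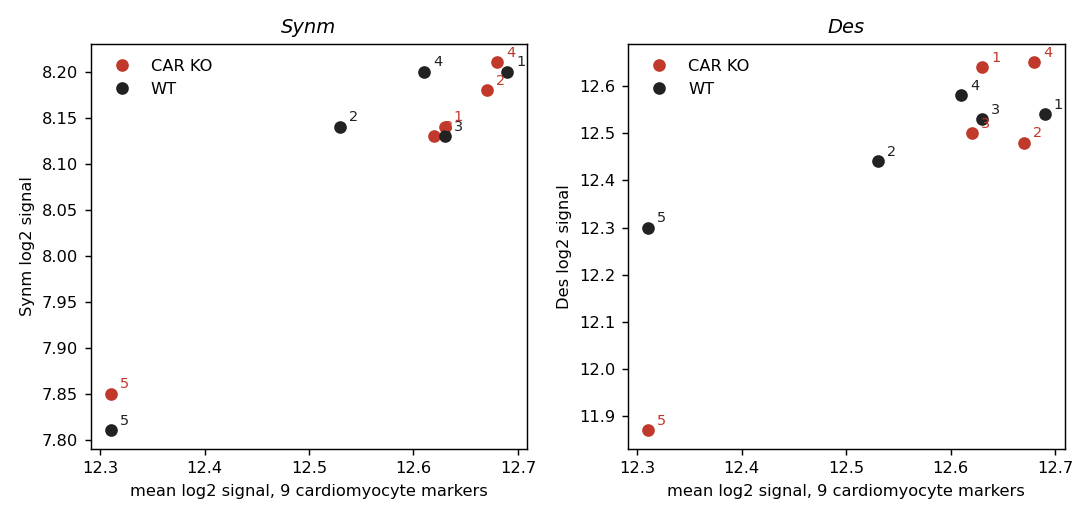
Log2 signal of Synm (left) and Des (right) against the mean log2 signal of 9 cardiomyocyte markers in the same sample, for CAR KO (red) and WT (black) samples, numbered as in the labels. CAR KO sample 5 and WT sample 5 share a marker mean of 12.31 and are the lowest samples in both panels, with Des at 11.87 in CAR KO sample 5 and 12.30 in WT sample 5.

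Nes, the gene of nestin, a filament protein of dividing progenitor cells in nervous tissue and muscle, had the smallest p of the 7. Its log2 signals were 10.25, 10.17, 10.40, 10.20 and 10.19 in CAR KO samples 1 to 5, against 10.52, 10.20, 10.48, 10.47 and 10.25 in WT samples 1 to 5. All 5 CAR KO samples lay below the WT median of 10.47, but the genotypes overlapped, because WT samples 2 and 5 were as low as the CAR KO samples. The means were 10.24 ± 0.09 in CAR KO and 10.38 ± 0.15 in WT hearts (SD, n = 5 each). The difference of -0.14 (interval -0.31 to 0.03), or -9.34% on the linear scale, did not pass the test (unadjusted p = 0.0951 and adjusted p = 1 from limma; exact permutation test, two-sided, p = 0.0794, where 0.00794 is the smallest p the design allows). WT samples 2 and 5 were also the WT samples richest in liver and yolk sac transcripts. With genotype means subtracted, Nes ran against the mean of that list over the 10 samples with r = -0.66 (exact permutation p = 0.0556, adjusted p = 0.205) and rho = -0.75 (exact permutation p = 0.0201), and r was -0.50 without CAR KO sample 3 and WT sample 2. Without that subtraction r was -0.51. Without WT samples 2 and 5 and CAR KO sample 5 the difference was -0.235 (interval -0.40 to -0.08, unadjusted p = 0.00882, adjusted p = 0.879 from limma). WT samples 2 and 5 had the lowest Nes of the WT samples, so leaving them out raises the WT mean whatever the liver transcripts do. That run is therefore no test of their part. The part of the liver transcripts in the level of Nes was not tested beyond a covariate, with which the difference was -0.153 (unadjusted p = 0.0465, adjusted p = 1 from limma).

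Markers of other cells that can carry nestin were examined beside it. The mean of 7 neural and neural crest markers ranged from 6.93 to 7.16 in CAR KO and from 7.08 to 7.53 in WT samples, with all 5 CAR KO samples below the WT median of 7.17. It overlapped between the genotypes, with Tubb3 and Dcx not above background, and 1 of the 7, Dcx, was at an unadjusted p under 0.05 (2.40% of clusters were). Across the 10 samples, with genotype means subtracted, Nes did not follow this mean (r = -0.12, exact permutation p = 0.883, rho = 0.02). The mean of the 4 smooth muscle markers had r = 0.52 with Nes (exact permutation p = 0.147, adjusted p = 0.377, rho = 0.41). Among these markers, Acta2 was the one closest to Nes (r = 0.83 over the 10 samples, genotype means subtracted), and it differed by -0.01 between the genotypes. The endothelial mean had r = 0.13 with Nes (exact permutation p = 0.652). The cardiomyocyte mean was about as close to Nes as the smooth muscle mean was (r = 0.51, exact permutation p = 0.172, adjusted p = 0.403, rho = 0.43). These values therefore do not tell smooth muscle from heart muscle. Without CAR KO sample 3 and WT sample 2, r was 0.59 for the smooth muscle mean, 0.7 for the cardiomyocyte mean and 0.56 for the endothelial mean.

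Lmna encodes lamins A and C, which the transcript cluster does not separate. It had the largest difference of the 7. CAR KO samples 1 to 5 were at 9.30, 9.16, 8.87, 9.36 and 8.97, against 9.25, 9.28, 9.30, 9.40 and 9.17 in WT samples 1 to 5. Of the CAR KO samples 3 lay below all WT samples, and samples 1 and 4 lay inside the WT range. The means were 9.13 ± 0.21 in CAR KO and 9.28 ± 0.08 in WT hearts (SD, n = 5 each). The difference was -0.15 on the log2 scale (interval -0.35 to 0.06), equal to -9.85%, and it did not pass the test (unadjusted p = 0.138, adjusted p = 1 from limma; exact permutation test, two-sided, p = 0.19). It was -0.084 without CAR KO sample 3 and -0.206 without CAR KO sample 4 (unadjusted p = 0.0435, adjusted p = 1).

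Lmna was closest to the endothelial list among the marker lists, with r = 0.75 (exact permutation p = 0.0276, adjusted p = 0.129), rho = 0.84 (exact permutation p = 0.016) and r = 0.87 without CAR KO samples 3 and 4, the ones farthest from the median of Lmna. The endothelial mean ranged from 10.83 to 11.20 in CAR KO and from 10.98 to 11.23 in WT samples. Of its 7 members 5 had the lower mean in CAR KO (43.9% of clusters did), none at an unadjusted p under 0.05. Of single markers, Lmna was closest to Myh7, a cardiac myosin (r = 0.83), and to Lyz2, a macrophage lysozyme (r = 0.82). The endothelial gene Pecam1 (0.75) came next, then the endothelial gene Tie1 and the cardiomyocyte gene Tnni1 (0.73 each). Lyz2 was at 8.80 ± 0.19 in CAR KO and 9.20 ± 0.13 in WT hearts (SD, n = 5 each), a difference of -0.41 (interval -0.62 to -0.20, unadjusted p = 0.00106 and adjusted p = 1 from limma), with 4 CAR KO samples below all WT samples. The mean of the 6 macrophage markers, of which Adgre1 and Ptprc were not above background, ranged from 7.13 to 7.67 in CAR KO and from 7.37 to 7.79 in WT samples, and Lmna had r = -0.30 with it. The part of these markers in the level of Lmna was not tested.

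Lmnb1, a B-type lamin, was at 11.19, 11.27, 11.42, 11.34 and 11.35 in CAR KO samples 1 to 5 and at 11.28, 11.32, 11.47, 11.38 and 11.25 in WT samples 1 to 5. The ranges overlapped nearly in full, and the difference was -0.03 (interval -0.16 to 0.11; adjusted p = 1 from limma). Lmnb2, the other B-type lamin, was the steadiest of the 7, with a pooled SD of 0.063. Its log2 signals were 9.26, 9.35, 9.35, 9.33 and 9.34 in CAR KO samples 1 to 5, against 9.39, 9.30, 9.30, 9.33 and 9.48 in WT samples 1 to 5. The difference was -0.03 (interval -0.15 to 0.09), so that a change of Lmnb2 beyond a fold of 0.899 or 1.06 lay outside the interval. Among the marker lists it was closest to the endothelial one, in the opposite direction, with r = -0.66 (exact permutation p = 0.0118, adjusted p = 0.0826) and rho = -0.66 (exact permutation p = 0.037), and r was -0.25 without CAR KO sample 1 and WT sample 5 and -0.32 after quantile normalization (exact permutation p = 0.354). Within each array, the balance of A-type to B-type lamin was also compared. Lmna minus Lmnb1 averaged -2.18 ± 0.28 in CAR KO and -2.06 ± 0.07 in WT hearts (SD, n = 5 each), a difference of -0.12 (exact permutation test, two-sided, p = 0.389; adjusted p = 0.897 over 7 such differences between members). The spread of this balance was wider among the CAR KO samples, where it ran from -2.55 to -1.89, than among the WT samples, where it ran from -2.17 to -1.98. For Lmna minus Lmnb2 the SDs were closer, at 0.24 in CAR KO and 0.15 in WT samples. That difference was also -0.12 (exact permutation test, two-sided, p = 0.349; adjusted p = 0.897). The spreads were not tested. Des minus Vim, muscle against general filament protein, differed by -0.03 between the genotypes (exact permutation test, two-sided, p = 0.865).

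**Figure D4:**
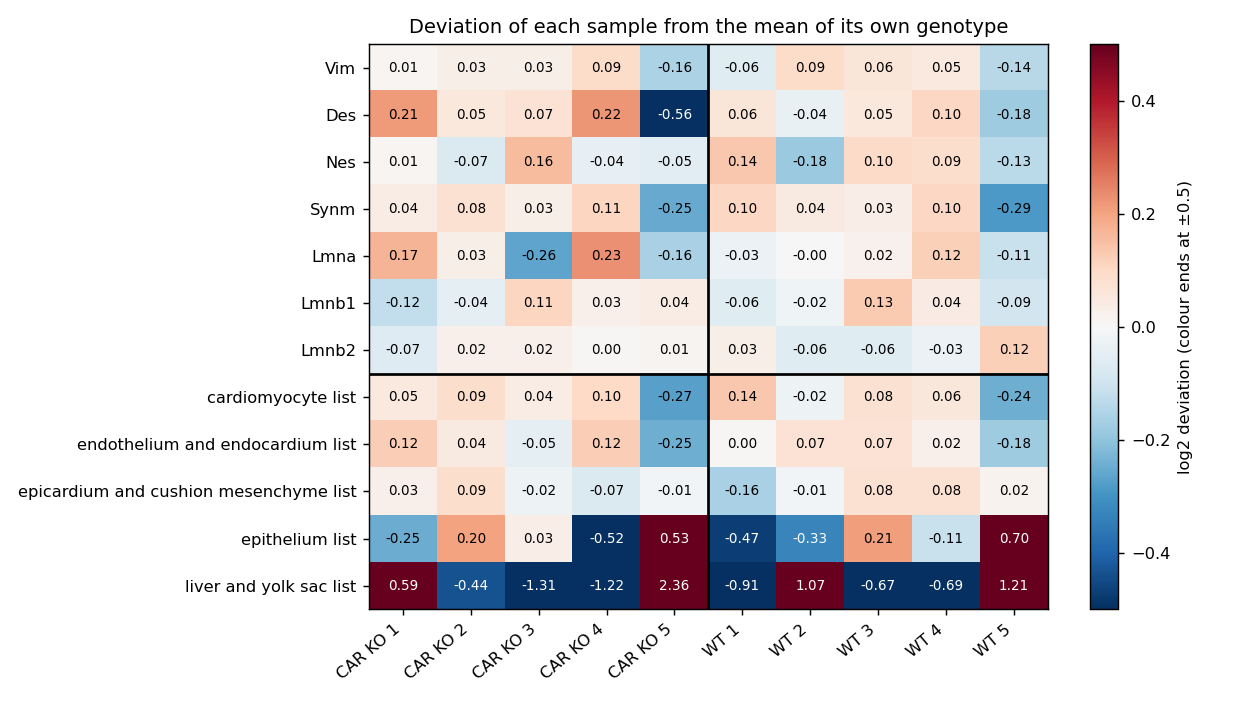
Deviation of each sample (columns, CAR KO left and WT right) from the mean of its own genotype, as log2 difference, for the 7 transcripts (upper rows) and the means of 5 cell type marker lists (lower rows); the number in each cell is the deviation and the colour ends at ±0.5. In the columns of CAR KO sample 5 and WT sample 5, Vim, Des, Synm and the cardiomyocyte and endothelial lists are low, while the epithelial and liver lists are high.

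Nes and Lmna, the members with the largest differences, both lie on chromosome 3 (GRCm38.p6). Nes runs from 87971093 to 87980451 and Lmna from 88481148 to 88509932, with 501 kb and 35 annotated genes between them. Of the 18 genes between them with a row of their own, 16 were above background, and 9 of these had the lower mean in CAR KO (43.9% of all clusters did). The median difference of the 16 was -0.015, with a range of -0.13 to 0.09. Of the 16, 1 (Slc25a44, a mitochondrial carrier) was at an unadjusted p under 0.05 from limma (2.40% of all clusters were). Nes and Lmna did not follow each other across samples (r = -0.13, rho = -0.10).

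None of the genes examined that work with the filaments and lamins was called. Of 14 other intermediate filament genes, 13 were above background and 0 were called in either direction, with 8 higher and 6 lower in CAR KO and a median difference of 0.006. The smallest p among them belonged to Krt7, a keratin of simple epithelia and mesothelium, at 9.47 ± 0.31 in CAR KO and 9.90 ± 0.22 in WT hearts (SD, n = 5 each; difference -0.43, interval -0.75 to -0.11, unadjusted p = 0.012 and adjusted p = 1 from limma). It was followed by Ina, the neuronal filament protein internexin, with -0.20. The other keratins of the list did not go with Krt7. Krt8 (0.39) and Krt18 (0.28) had the higher mean in CAR KO, and Krt19 (-0.04) and Krt20 (0.0) differed little. The intervals of Krt7, Krt8, Krt18 and Nefm passed a 1.5-fold change, and those of the other 10 did not (97.3% of clusters stayed within it). Beside Krt7, all 8 markers of epicardium and cushion mesenchyme had the lower mean in CAR KO, against 43.9% of clusters. Of these markers 3 were at an unadjusted p under 0.05, against 2.40% of clusters, and 0 were called. Their mean ranged from 10.53 to 10.69 in CAR KO and from 10.61 to 10.85 in WT samples. Upk3b, a mesothelial membrane protein, had the largest difference of the list, -0.46 (interval -0.72 to -0.19, unadjusted p = 0.00284 and adjusted p = 1 from limma). Postn and Twist1 differed by -0.03 each and Pdgfra by -0.05. The part of these markers in the value of Krt7 was not tested.

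The 17 linkers and chaperones, which tie filaments to junctions and membranes or keep desmin from clumping, had 11 higher and 6 lower means in CAR KO, 0 called and 0 at an unadjusted p under 0.05, and a median difference of 0.038. Dag1, the gene of dystroglycan, with -0.09 (interval -0.22 to 0.04), and Dmd, the gene of dystrophin, with -0.12 (interval -0.31 to 0.06), had the smallest p. Dsp, the gene of desmoplakin, which anchors desmin at desmosomes, differed by 0.04 (interval -0.13 to 0.20). Plec, the gene of plectin, which crosslinks filaments, differed by -0.07, and Cryab, the small heat shock protein that guards desmin, by -0.05. The interval stayed within a 1.5-fold change for all 17, as it did for 97.3% of all clusters.

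Of 16 nuclear envelope partners of the lamins (Tpr was not analysed here), 11 had the lower mean in CAR KO (43.9% of clusters did) and 5 the higher. Their median difference was -0.022, and 0 were called or reached an unadjusted p under 0.05. Emd, the gene of emerin, an inner membrane protein that binds lamins, differed by -0.06, and Tmpo, which encodes the lamina-associated polypeptides, by -0.07. Among the proteins that couple the nucleus to the cytoskeleton, the differences were -0.02 for Sun1, 0.01 for Sun2, -0.04 for Syne1 and 0.03 for Syne2. All 16 intervals stayed within a 1.5-fold change (97.3% of all clusters did), and 13 within a 1.2-fold change (60.6% of all clusters). Of 6 genes for enzymes that attach lipid tails to proteins, or trim or methylate the tailed end, 3 had the higher and 3 the lower mean and 0 were called. Zmpste24, the protease that matures prelamin A, differed by less than 0.01, and Pggt1b and Icmt had the smallest p, with -0.10 and -0.07. Among 9 cell division genes (Ccnb1 was not analysed here), the differences ran from -0.07 for Mki67 to 0.06 for Birc5, and 0 were called.

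**Figure D5:**
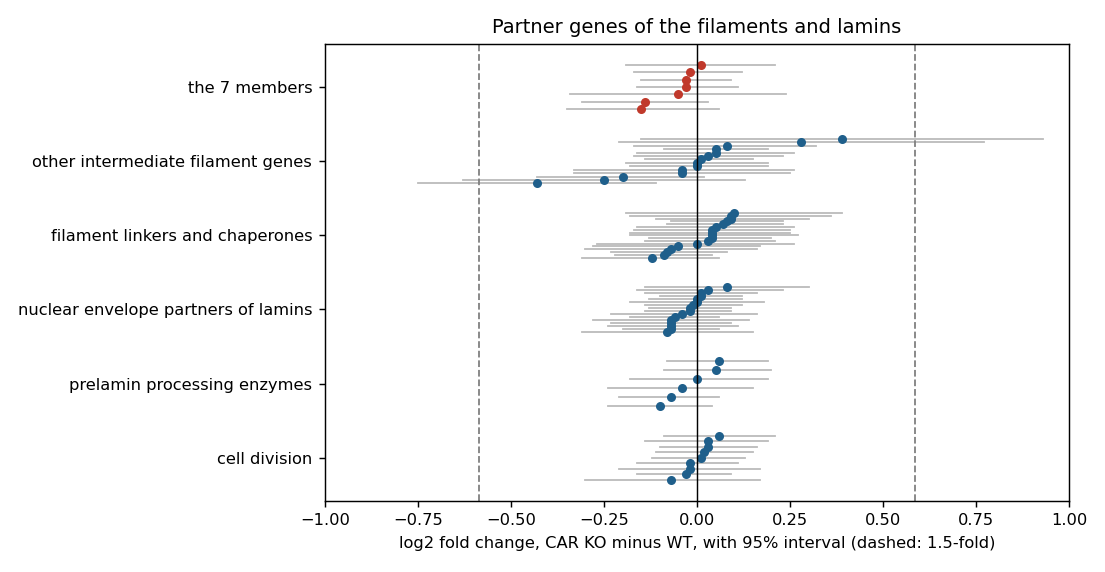
Log2 fold change (CAR KO minus WT) with 95% confidence interval of the 7 transcripts (red) and of the genes in 5 lists of partners (blue), 1 point per gene; dashed lines mark a 1.5-fold change. Of the intervals drawn, those of Krt7, Krt8, Krt18 and Nefm, among the other intermediate filament genes, pass a dashed line.

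The genes whose pattern over the 10 samples was most like each member, out of 14661 genes above background, were taken by Pearson's r after the genotype means were subtracted. They were selected as the highest of many, so their r is a description only. For Des they were Ptges3l (r = 0.986), Cpa5 (0.977) and Snx32 (0.975). For Synm they were Asb2, a subunit of a muscle ubiquitin ligase (r = 0.981), Tmem161a (0.978) and Smtnl2 (0.977). Vim was followed by Rab14, a regulator of endosomal traffic (r = 0.989), and by the mitochondrial enzyme genes Acadm (0.985) and Mdh2 (0.981). Lmna was followed by Gbgt1 (r = 0.974), Eln, the gene of elastin (0.961), and Pcsk6, a protein convertase (0.954). Of these, Eln differed by -0.49 between the genotypes and Pcsk6 by -0.24. For Lmnb1 the closest were Sacm1l (r = 0.956), Nup88, a nuclear pore protein (0.950), and Riok3 (0.937). For Lmnb2 they were AI837181 (r = 0.951), Zfp574 (0.944) and Tysnd1 (0.933), and for Nes 1700010I14Rik (r = 0.938), Xpnpep3 (0.932) and Qk (0.903).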

How the data were processed

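The authors hybridised RNA of 10 heart samples to Affymetrix Mouse Gene 1.0 ST arrays (WT PLUS kit) and deposited 1 table of log2 signals. Per the labels the processing notes name MAS5. The steps from scanner output to table are not given in the sources used here. Of 35556 rows, 6612 control rows were left out by identifier, which left 28944 transcript clusters, 21789 of them naming 1 gene in the platform annotation. Symbols were updated through GRCm38.p6 identifiers (21698 matched).

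CAR KO and WT samples entered a linear model in limma 3.58.1 (R 4.3.3, eBayes without trend, no filter on signal). P-values were adjusted by Benjamini-Hochberg for every cluster, with a call under 0.05, and intervals are those of single genes. Single values and correlations were tested by exact permutation (Python 3.11.15, SciPy 1.17.1), correlations over all orders within genotype, in place of the random draws first planned. The procedure was tested on simulated data. The number of arrays limits the precision.

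The members and all lists were chosen with earlier results of these data known. Named were the members, in each partner list the genes with the smallest p above background, marker genes closest to a member, and the 3 genes most alike to each member. The other partner and marker genes named (Dsp, Plec, Cryab, Zmpste24, Upk3b, Postn, Twist1, Dcx, Nefm, Krt8, Krt18, Krt19, Krt20, and the Sun and Syne genes) and Slc25a44 were chosen after their values were seen. Sequences are RefSeq's; 6 of the 7 members were looked up.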

Additional observations from a re-analysis of the deposited data

Results flagged for a closer look

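Of 34 groups of 5 samples examined (7 transcripts and 10 list means in each genotype), 8 held a sample well apart from its group. By chance alone, 1 in 20 groups would, or 1.7 of them. The groups reuse the same 10 samples, and several of the measures are correlated, so the 8 are not separate departures and the counts are no test. The value given is the gap to the nearest sample as a share of the group's range. CAR KO sample 5 was lowest for Des (0.780), Synm (0.756) and the cardiomyocyte mean (0.813). WT sample 5 was lowest for Synm (0.811) and the endothelial mean (0.728) and highest for the neural mean (0.775). CAR KO sample 1 was lowest for Lmnb2 (0.749), and WT sample 3 was lowest for the erythroid mean (0.734).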

How the results depend on the processing

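No transcript of the 7 was called under any alternative run, with adjusted p of 0.775 or more throughout, and Nes and Lmna had the lower mean in CAR KO under all of them. Array weights called 2 clusters in place of 1. Signs of small differences turned with array weights (Des 0.022, Synm -0.008), without 3 liver-rich samples (Vim 0.002, Des 0.014, Synm -0.010), without 4 (Vim 0.013, Synm -0.001, Lmnb2 0.006), and for Synm with the liver mean (-0.009) or the cardiomyocyte mean (-0.021) as a covariate. Without both samples numbered 5 they were 0.043 for Des and -0.003 for Synm. This and the cardiomyocyte covariate were added after the data were seen. With samples left out in turn, differences ran from -0.106 to 0.088 for Des, -0.065 to 0.070 for Synm, -0.057 to 0.017 for Vim and -0.052 to 0.007 for Lmnb1. For Nes they ran from -0.189 to -0.108. Nes had an unadjusted p under 0.05 from limma with array weights (0.0143), the liver covariate (0.0465), the replicate block, and without WT sample 2 (0.0287), CAR KO sample 3 (0.044), or 3 (0.00882) or 4 (0.0218) liver-rich samples. Without 3 and 4 liver-rich samples, the correlation of Des with the cardiomyocyte mean was 0.08 and 0.27, and that of Vim with Synm was -0.05 without 4. The correlation of Lmnb2 with the endothelial mean was -0.46 without WT sample 5 and -0.32 after quantile normalization. Unadjusted p-values under 0.05 were found for 696 clusters in all samples, 1811 under array weights, 411 without WT sample 4, 1214 and 1592 without the 3 and 4 liver-rich samples, and 1079 with the cardiomyocyte covariate. A fit with a replicate block for the numbers gave 1304 such clusters and the same -0.141 for Nes (unadjusted p = 0.0454, adjusted p = 0.969 from limma). Samples of the same number deviated together with r of 0.201, 0.474, 0.331, 0.0727 and 0.561 for numbers 1 to 5. Samples of different numbers were not compared in this way, so these r cannot settle whether the numbers are pairs. The labels name no pairs, and the main fit took none. Apart from fewer samples, the cause of these shifts was not tested. A second row per gene could not be tried, since each member has 1.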
